A study of Mus musculus with 6 samples.

Results

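Potassium channel genes were taken as all gene probes on the array whose gene name starts with Kcn. The rule gave 138 probes for 95 genes, of 36085 genes on the array. Of these probes, 74 (53.6%) were well above background, the scanner software's call that a spot is brighter than its surroundings, on 3 or more of the 6 arrays, against 57.0% of all gene probes. They stand for the 61 genes that could be compared between groups. The other 34 genes were left untested, 13 of them above background on no array and 21 on 1 or 2 arrays.

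The arrays measured total RNA from hearts of male C57BL/6 mice, 8 weeks old, harvested 21 days after the left anterior descending coronary artery had been tied to cause an infarct. One group of 3 samples had received a miR-433 antagomir, an oligonucleotide made to block this microRNA, and the other 3 a scrambled control oligonucleotide. Both were given by tail vein at 80 mg/kg on 3 consecutive days, and both groups carried the infarct, so every heart analysed here had been injured and injected. The study asked whether blocking miR-433 prevents cardiac fibrosis. The labels state neither the region of the heart nor whether each sample is a separate mouse, so p-values cover only the spread between these samples.

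Potassium channels carry the outward current that ends the cardiac action potential and holds the resting potential between beats. The pore is built from alpha subunits: voltage-gated families (Kcna to Kcnd, Kcnh, Kcnq) repolarise the cell, inward rectifiers (Kcnj) and tandem-pore channels (Kcnk) set the resting potential, and calcium- or sodium-activated channels (Kcnma, Kcnn, Kcnt) open when those ions rise in the cell. Auxiliary subunits (Kcnab, Kcne, Kcnip, Kcnmb) change how the pores open or reach the membrane. In the mouse ventricle the fast transient outward current is carried mainly by Kcnd2 with Kcnip2, and lower levels of such channels are a known feature of diseased hearts.

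The microRNA is shown first, because its seed (bases 2 to 8, in capitals) was searched for in the probes. The labels name miR-433 without an arm, and the 3p arm is printed here from RefSeq (GRCm38.p6, chr12:109591781-109591802, plus strand).
mmu-miR-433-3p: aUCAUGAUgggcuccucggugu
The DNA complement of the seed, ATCATGA, was present in 2 of the 138 channel probes (1.45%), against 0.516% of all gene probes, and the matching letters for the 5p arm in 0 of 138. Probes copy the sense strand of the transcript, so such a match lies in the transcript itself. The matching stretches, with the match in capitals, belong to Kcnj8 (probe at mm9 chr6:142513487-142513546, minus strand) and Kcne1l (chrX:138740331-138740390, minus strand).
Kcnj8: cacgggtcATCATGAatatgttcaaatcta
Kcne1l: acatcctactcATCATGAtcttctatgcct
Both probes were above background on all 6 arrays, and their antagomir minus control differences were -0.03 for Kcnj8 and 0.54 for Kcne1l on the log2 scale. A 7-base match in a 60-base probe describes that window only, and the rest of the transcripts was not searched.

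Stretches of further probes show where 3 members lower under the antagomir and 2 channels of heart muscle were read. They are the first 30 of 60 bases, 5′ to 3′, and capitals mark runs of 4 or more purines (A or G). The probe of Kcnj15 lies at mm9 chr16:95521158-95521217 (plus strand), that of Kcne4 at chr1:78815838-78815897 (plus) and that of Kcnma1 at chr14:24126279-24126338 (minus). Kcnd2 was read at chr6:21679569-21679628 (plus) and Kcnk3 at chr5:30927090-30927149 (plus).
Kcnj15: cataatgcctccacgacatgagcccctcta
Kcne4: GAGAAAGAtgtgttgacttAAAGAcacagt
Kcnma1: tgggtgggcagtcaatgtatacatgtaaat
Kcnd2: aaatatactgtgttggtggtgaatgacttt
Kcnk3: ctGGGAAAtccttaggtGGAAGGAAtctgg

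Antagomir array 3 stood apart for many dim probes, which bears on every weakly expressed channel. On it 98 of the 138 channel probes were above background, where the control arrays had 74, 75 and 76 and the other antagomir arrays 70 and 71. Among channel probes dim on the other 5 arrays, 15 of 30 with at least 50% purines were above background on antagomir array 3, and 3 of 17 with fewer purines. Over all gene probes dim on those 5 arrays the shares were 60.9% and 15.7%. The 64 probes that did not reach 3 arrays were a median 2.66 (log2) brighter on that array than the mean of the other 5, against 0.32 for the 74 that did. Control array 2 stood apart in another way, being the lowest of the 6 arrays for many channels of heart muscle cells, as given gene by gene below. On control array 2 the mean level of fibroblast markers was 0.42 and that of smooth muscle and pericyte markers 0.36 above the control mean, the highest of the control arrays. Myh1, 1 of 5 fast skeletal muscle markers and not tested, was at 0.05 there and between -7.07 and -5.50 on the other arrays. Tnnt3 was also highest there, at -0.04. Actn3 and Myh4, not tested either, were at -3.26 and -4.14 there and higher on antagomir array 3, at -2.51 and -3.47. Pvalb was at -0.82 on control array 2 and at 0.32, -0.08 and 0.13 on antagomir arrays, a difference of 1.16 (SE 0.17). The part of these array differences in the channel values was not tested.

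**Figure D1:**
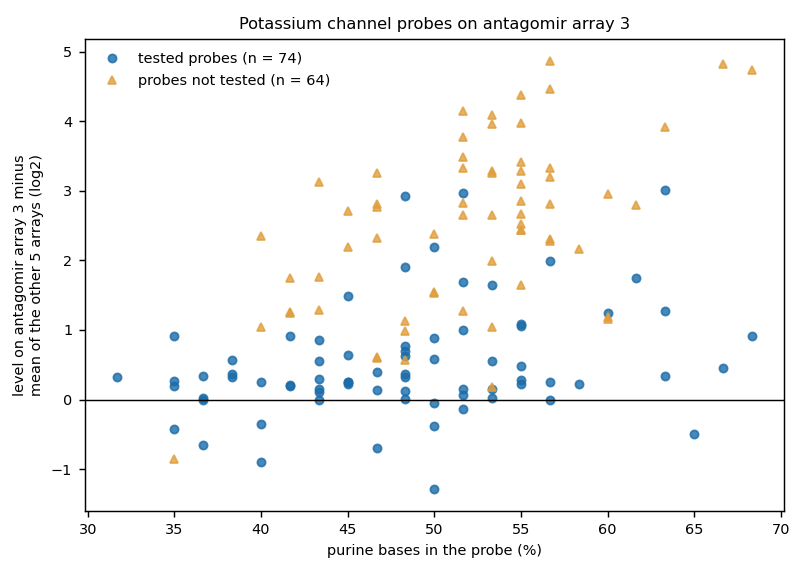
Each point is 1 of the 138 potassium channel probes, with the percentage of purine bases in the probe on the x axis and its log2 level on antagomir array 3 minus the mean of the other 5 arrays on the y axis. The 64 probes that were not tested (triangles) lie higher, with a median of 2.66, than the 74 tested probes (circles), with a median of 0.32.

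A level here is the processed signal of a probe on a log2 scale, counted from the 75th percentile of its array, so that 0 is as bright as that percentile and a difference of 1 is 2-fold. Values are listed in the order of arrays 1, 2 and 3 of each group. Levels of different probes are not comparable with each other. Differences are antagomir minus control, each with its standard error (SE) from limma, a linear model that moderates the variance of each gene with that of all genes, two-sided, over 3 against 3 arrays. Adjusted p-values (Benjamini-Hochberg) are over the 22991 genes tested.

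None of the 61 potassium channel genes passed an adjusted p of 0.05 by limma, where 3 of all 22991 genes (0.013%) did, and the lowest adjusted p of a member was 0.538, for Kcnj15. An unadjusted p under 0.05 was reached by 7.21% of all genes and by 7 members. There were 3 members higher, among them Kcne1l and Kcnh4, where 3.05% of all genes were called, and 4 lower (Kcnj15, Kcne4, Kcnma1 and Kcnj13), where 4.16% were. Without overlap of the groups were 15.7% of all genes. The groups did not overlap for 8 members that were higher (all genes 8.78%) and 3 that were lower (all genes 6.93%). In all, 44 members were higher and 17 lower under the antagomir, with a median of 0.29, but 62.6% of all genes were higher too, with a median of 0.09. Relative to the median of all genes, 39 members were above and 22 below. With quantile scaling the members divided into 32 higher and 29 lower, and with median scaling into 20 and 41, with the median of all genes at -0.03 and -0.38. Relative to that median, 35 and 39 of the 61 members were above it, respectively. Without control array 2 there were 41 members higher and 20 lower, with a median of 0.18 beside 0.05 for all genes, and without antagomir array 3 there were 36 and 25, with a median of 0.22 beside 0.06.

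**Figure D2:**
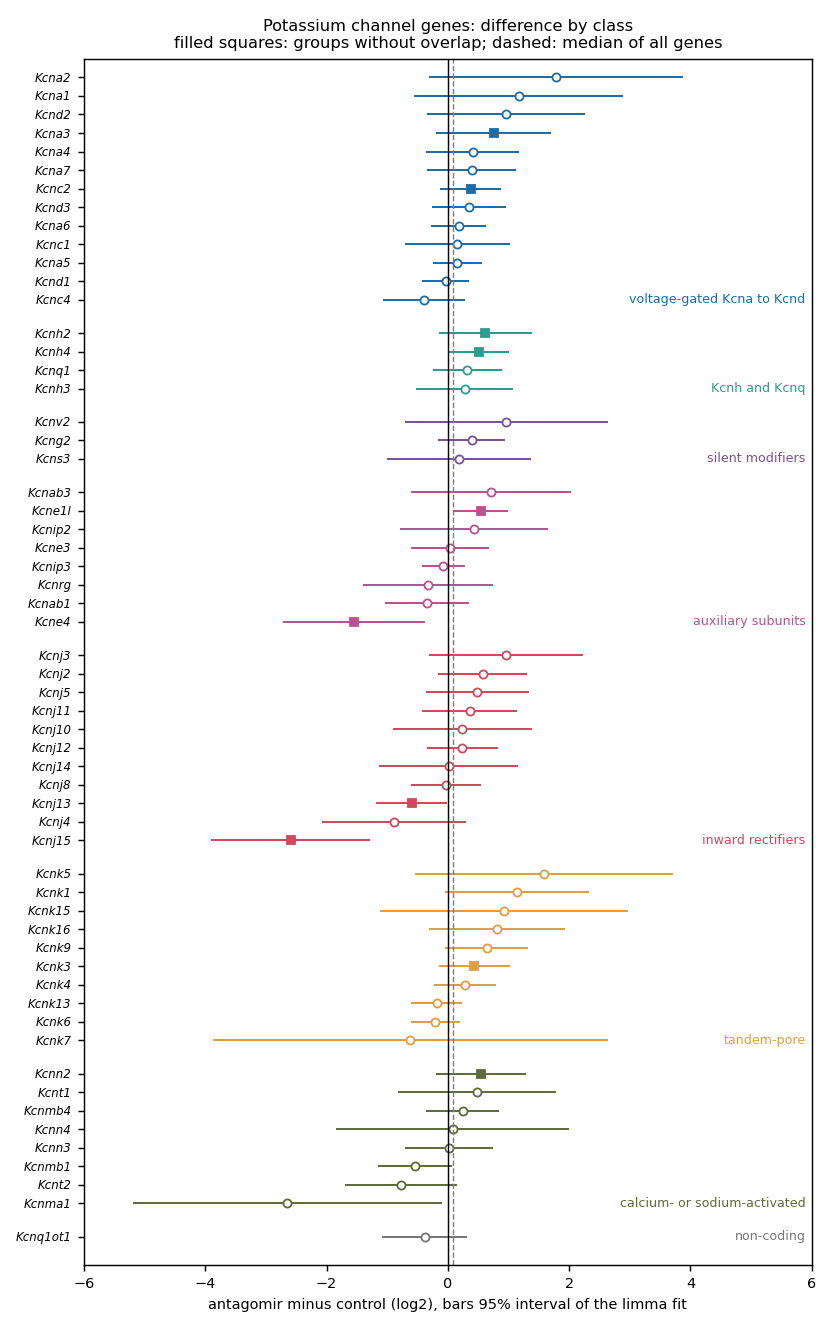
The difference between 3 antagomir and 3 control arrays (x axis, log2) is drawn for 58 of the 61 tested potassium channel genes, ordered by class, with bars for the 95% interval of the limma fit. Filled squares mark genes whose groups do not overlap (7 higher and 3 lower), and the dashed line is the median of all genes, 0.09.

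Cell types were checked by their markers, as a bulk sample cannot tell fewer cells of a type from less RNA per cell. Heart muscle markers (Myh6, Actc1, Tnnt2, Tnni3, Myl2, Myl3, Ryr2 and Pln) were above background throughout, and 8 of 8 were higher under the antagomir, with a median of 0.23. Such a count depends on the scaling, as the median of all genes was 0.09 here and -0.38 with median scaling. Their summed signal, in multiples of the array's 75th percentile, was 3107 to 3615 on control arrays and 3684 to 4027 on antagomir arrays, and the mean level of the list was lowest on control array 2. The summed signal of all genes tested was 275565 to 318001 on control and 315567 to 337626 on antagomir arrays. Fibroblast markers were lower in 8 of 8, with a median of -1.88, and their summed signal was 742 to 975 on control and 383 to 570 on antagomir arrays. They were uneven in size, from -3.71 for Postn to -0.0016 for Dcn, which was level. Pdgfra and Tcf21 differed by -0.35 and -0.53, with overlapping groups. Smooth muscle and pericyte markers were lower in 7 of 8, with a median of -0.57, at sums of 117 to 177 and 85.1 to 113. Atrial muscle markers were uneven: of 5 tested, 4 were higher and 1 lower, with a median of 3.10. Their mean level minus the control mean was -0.46, 3.49 and 4.83 on antagomir arrays 1, 2 and 3. Sln, an atrial regulator of the calcium pump, had control levels of -4.01, -2.14 and 0.53 and antagomir levels of -1.46, 5.10 and 6.63. Nppa, the 1 that was lower, was at 8.61, 9.29 and 8.56 against 4.80, 7.88 and 8.66. On antagomir array 2 the mean levels of lymphocyte and macrophage markers were 2.00 and 0.83 above the control mean. Counted in the same way they were -0.85 and -0.22 on antagomir array 1 and 0.33 and -0.28 on antagomir array 3. Adipocyte markers were higher in 3 of 3 tested, with a median of 2.83. Their mean level minus the control mean was -2.40, -0.24 and 2.65 on control and 1.39, 3.89 and 3.94 on antagomir arrays. Endothelial markers were lower in 6 of 7, with a median of -0.12. The part of these cell types in the channel values below was not tested. Of 4 conduction system markers 3 were not tested, among them Hcn4, a pacemaker cell marker above background on 0 arrays. The 1 tested, Cntn2, was above background on 4 arrays and differed by 1.47 (SE 0.92).

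**Figure D3:**
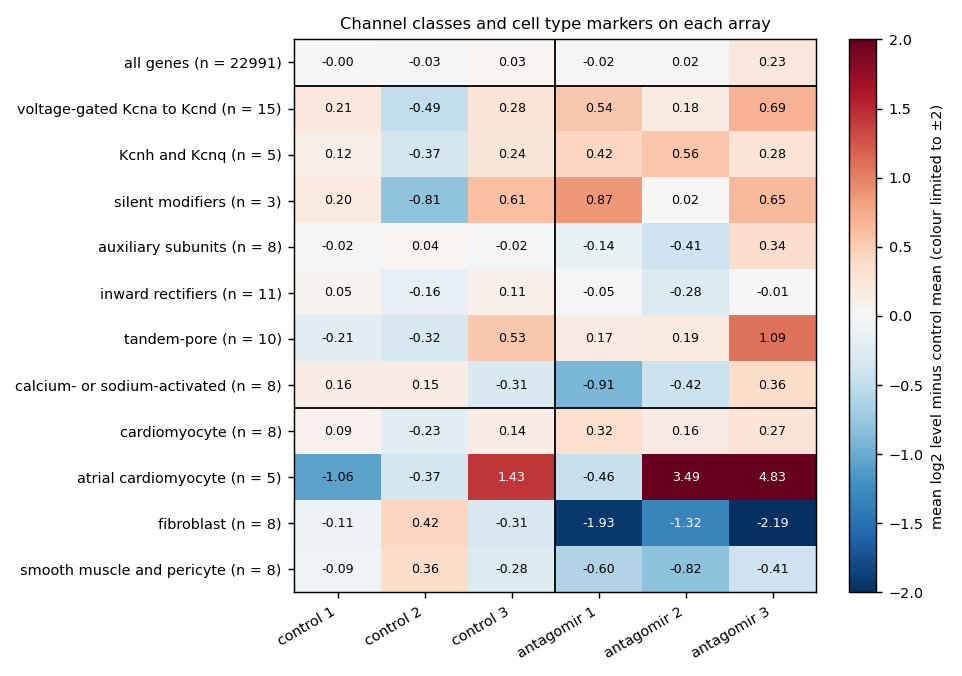
Each cell gives the mean log2 level of a gene list on 1 array minus its mean over the 3 control arrays, for all genes, 7 classes of potassium channel genes and 4 cell type marker lists, with the number of tested genes beside each name. Control array 2 is low for the voltage-gated classes (-0.49 and -0.37) and for heart muscle markers (-0.23), and fibroblast markers are low on all antagomir arrays (-1.93, -1.32 and -2.19).

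The voltage-gated Kcna to Kcnd families, which include the channels of the transient outward and delayed rectifier currents, had 15 of 17 genes tested, of which 13 were higher and 2 lower, with a median of 0.37. Of these 12 lay above the median of all genes. The size of the class median rested on control array 2: without it the median was 0.10, against 0.05 for all genes, and 12 of 15 genes were still higher. With median scaling the class median was -0.10, and with quantile scaling 0.21.

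Kcnd2 encodes the main pore subunit of the fast transient outward current in mouse ventricle. Its control levels were 2.48, 1.05 and 3.12, and its antagomir levels 3.45, 2.93 and 3.16. Control array 2 was by far the lowest, control array 3 lay between the antagomir arrays, and the groups overlapped. The difference was 0.96 (SE 0.53, n = 3 against 3, limma adjusted p = 0.691), or 0.38 without control array 2.

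Kcnd3, a second pore subunit of that current, was at 2.00, 1.41 and 2.30 on control and 2.29, 2.18 and 2.29 on antagomir arrays. Here too control array 2 was lowest and control array 3 lay just above the antagomir arrays, with a difference of 0.35 (SE 0.25) that was 0.10 without control array 2. Kcnip2, the calcium-binding subunit that Kcnd channels need in the ventricle, was at 1.36, -0.41 and 0.90 against 1.46, 0.57 and 1.11. Its difference of 0.43 (SE 0.49) was smaller than the control SD of 0.91, and without control array 2 it was -0.08. Kcnd1, a relative with little known role in the ventricle, differed by -0.04 (SE 0.15).

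Kcna4, the pore of the slow transient outward current, was at 2.92, 2.10 and 3.12 on control arrays and 3.42, 3.03 and 2.92 on antagomir arrays, with overlapping groups and a difference of 0.41 (SE 0.31), or 0.10 without control array 2. Kcna5, which carries an ultrarapid delayed rectifier current, was nearly level, at 0.97, 0.73 and 0.96 against 1.00, 0.90 and 1.23, with a difference of 0.16 (95% interval -0.22 to 0.54), or 0.0802 without control array 2 and 0.0642 without antagomir array 3. The intervals of Kcnd2, Kcnd3, Kcna4 and Kcna5 include 0, and their widths leave room for differences in either direction.

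The remaining Kcna genes are better known from neurons and immune cells. Kcna1 was at -0.20, -2.53 and -0.08 on control and 0.61, -0.32 and 0.41 on antagomir arrays, a difference of 1.17 (SE 0.70) that was 0.38 without control array 2. Kcna2 differed by 1.78 (SE 0.85), the largest positive value of the 61, from levels of -4.10, -6.46 and -4.32 to -2.73, -4.56 and -2.24. It was above background on 2 of the 3 control arrays, the groups overlapped, and without control array 2 the difference was 1.03. Kcna3, known from lymphocytes, did not overlap, at -3.97, -4.35 and -4.05 against -3.80, -3.80 and -2.51, with a difference of 0.75 (SE 0.38) that was 0.32 without antagomir array 3. Kcna6 and Kcna7, the latter found in skeletal and heart muscle, differed by 0.18 and 0.39, or by 0.0397 and 0.10 without control array 2.

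Among the Kcnc genes, which in neurons allow fast firing, Kcnc2 was at -4.20, -3.74 and -3.57 on control arrays and -3.52, -3.46 and -3.41 on antagomir arrays. The groups did not overlap, with a difference of 0.37 (SE 0.20), but with quantile scaling its difference was -0.52. Kcnc4 alone among the 61 passed the background call in the 3 control samples and in 0 of 3 antagomir samples. Its levels were -4.04, -3.94 and -4.57 against -4.92, -4.65 and -4.15, so they overlapped. The difference was -0.39 (SE 0.27), or -0.27 without control array 2. It was kept for comparison through the control arrays alone, so the calls add no separate evidence of a difference.

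In the Kcnh and Kcnq families 5 of 13 genes were tested, and all 5 were higher, with a median of 0.36, or 0.21 without control array 2. The other 8, such as Kcnh1, Kcnh7 and Kcnq5, were above background on no control array. Kcnh2, the pore of the rapid delayed rectifier and the channel blocked by many drugs that lengthen the QT interval, was at 1.91, 1.00 and 2.11 on control and 2.24, 2.41 and 2.22 on antagomir arrays. The groups did not overlap, the gap between control array 3 and the nearest antagomir array was narrow, and the difference was 0.62 (SE 0.31, adjusted p = 0.691). It was 0.28 without control array 2.

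Kcnh4, a relative known mainly from brain, was at -1.15, -1.73 and -1.50 against -1.13, -0.78 and -0.93, again without overlap and with a narrow gap, and differed by 0.52 (SE 0.20, adjusted p = 0.675). Kcnq1, the pore of the slow delayed rectifier, was at 3.32, 2.83 and 3.52 on control and 3.42, 3.78 and 3.44 on antagomir arrays, an overlap that left a difference of 0.32 (SE 0.23), or 0.12 without control array 2. Kcnh3, a brain channel, differed by 0.28, or by 0.62 without antagomir array 3. Kcnq1ot1, the non-coding transcript that runs antisense to Kcnq1 from within it, was measured by strand-specific probes of its own and differed by -0.39 (SE 0.28), or -0.11 without control array 2.

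Silent modifiers (Kcnf, Kcng, Kcns and Kcnv) form no channel alone but join voltage-gated pores. Of 10 genes 3 were tested, and all 3 were higher, with a median of 0.39. Without control array 2 there were 2 higher and 1 lower, with a median of 0.22, and without antagomir array 3 also 2 and 1, with a median of 0.50. Kcnv2 was at 0.17, -1.88 and 0.58 on control and 1.13, 0.07 and 0.57 on antagomir arrays, and its difference of 0.97 (SE 0.68) was 0.22 without control array 2. Kcng2 was at 2.67, 2.37 and 2.96 against 3.36, 2.97 and 2.86, with overlap through control array 3 and a difference of 0.39 (SE 0.22) on the probe that stands for the gene, or 0.25 without control array 2. Kcns3, above background on 4 arrays, differed by 0.18, by -0.13 without control array 2 and by -0.14 without antagomir array 3.

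Auxiliary subunits had 8 of 13 genes tested, with 4 higher and 4 lower and a median of -0.02. Of these 3 lay above the median of all genes. No test compared the classes. Kcne4, a small membrane subunit known to damp Kcnq1 and some Kcna currents, was the lowest. It was at -1.17, 0.06 and -1.56 on control and -2.27, -2.98 and -2.09 on antagomir arrays, so all 3 antagomir arrays lay below all 3 control arrays. The difference was -1.55 (SE 0.47, 2.94-fold lower, adjusted p = 0.620), and -1.08 without control array 2, which was the highest of the 6. A second Kcne4 probe was above background on no array.

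Kcne1l, a further small subunit of that family, gave conflicting readings. The probe that holds the seed match was at -2.65, -2.93 and -2.81 on control and -2.42, -1.99 and -2.37 on antagomir arrays, higher without overlap (SE 0.17, adjusted p = 0.651). The second probe, farther along the X chromosome gene, was at -3.35, -2.26 and -2.64 against -3.29, -2.78 and -3.77 and differed by -0.53, so no direction can be given for the gene. The 2 probes of Kcne3 also differed in sign, at 0.04 and -0.49. These were the 2 of 13 genes with more than 1 tested probe whose probes disagreed.

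Kcne1 and Kcne2, the partners of Kcnq1 and Kcnh2 in the human heart, could not be compared: Kcne1 was above background on 1 array and Kcne2 on none. Kcnab1, a cytoplasmic subunit that speeds inactivation of Kcna channels, was at -1.54, -1.34 and -1.90 on control and -1.99, -2.35 and -1.46 on antagomir arrays, a difference of -0.34 (SE 0.28), or -0.21 without control array 2 and -0.58 without antagomir array 3. Kcnab3 differed by 0.71 (SE 0.53), which was 0.16 without antagomir array 3, and Kcnab2 was above background on that array alone. Kcnip3, also known as a calcium-dependent transcription regulator, and Kcnrg, which hinders assembly of voltage-gated channels, differed by -0.07 and -0.32, or by -0.14 and -0.78 without antagomir array 3.

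Inward rectifiers had 11 of 15 genes tested, 7 higher and 4 lower, with a median of 0.24. Of these 6 lay above the median of all genes. With quantile scaling, where the median of all genes is -0.03, the class median was -0.01 with 5 genes higher and 6 lower. Without control array 2 it was 0.09, with 7 higher and 4 lower. The 7 higher genes included the pores of the main cardiac currents, and the 2 without overlap, Kcnj15 and Kcnj13, were lower and are better known from epithelia.

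Kcnj2, the main pore of the inward rectifier current that holds the resting potential of ventricular muscle, was at -1.79, -2.36 and -1.22 on control and -1.17, -1.19 and -1.29 on antagomir arrays. The antagomir arrays were tightly grouped and control array 3 lay among them, with a difference of 0.58 (SE 0.29), or 0.29 without control array 2. Kcnj12, a second pore of that current, was at 1.69, 1.37 and 2.09 against 1.81, 2.21 and 1.84, a difference of 0.24 (SE 0.23) that was 0.0649 without control array 2.

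Kcnj3 and Kcnj5 together form the acetylcholine-activated channel of atrium and pacemaker cells. Kcnj3 was at -0.65, -2.26 and -0.31 on control and 0.02, -0.35 and -0.01 on antagomir arrays, with a difference of 0.96 (SE 0.51) on this probe and 1.21 on a second. Control array 2 was lowest and control array 3 lay just above antagomir array 2, and without control array 2 the difference was 0.37. Kcnj5 was at 4.69, 3.67 and 4.94 against 4.99, 4.88 and 4.89, differing by 0.49 (SE 0.34) with the array and 0.10 without it.

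The channel that closes when ATP is plentiful has Kcnj11 (cardiac muscle) or Kcnj8 (vessels) as its pore and Abcc8 or Abcc9 as its sulfonylurea receptor. Kcnj11 was at 2.33, 1.53 and 2.37 on control and 2.70, 1.98 and 2.64 on antagomir arrays, with a difference of 0.36 (SE 0.31) and 0.09 without control array 2. Kcnj8 was at 1.28, 0.74 and 1.43 against 1.34, 0.93 and 1.102, a difference of -0.03 (95% interval -0.59 to 0.53), or -0.23 without control array 2. The receptors Abcc8 and Abcc9 differed by 0.34 and 0.44, and for both control array 2 was again the lowest, at 3.97 and 3.67.

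Kcnj15, an inward rectifier of kidney and other epithelia, had the smallest p of all members. It was at -0.34, 0.69 and -0.997 on control and -2.25, -3.60 and -2.59 on antagomir arrays, and the lowest control array stood well above the highest antagomir array. The difference was -2.59 (SE 0.53, 6.04-fold lower, 95% interval -3.89 to -1.29, unadjusted p = 0.00274, adjusted p = 0.538). Leaving out 1 array at a time gave -2.98 to -2.14. A second, much dimmer probe was at -4.62, -4.69 and -6.12 against -6.82, -6.91 and -2.83, lower on antagomir arrays 1 and 2 than on any control array but highest of all on antagomir array 3. Its difference was -0.38.

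Kcnj13, an inward rectifier of retinal and other epithelia, was at -2.44, -2.39 and -2.50 on control and -2.84, -3.52 and -2.75 on antagomir arrays, a difference of -0.59 (SE 0.23, adjusted p = 0.681) without overlap. Its second probe, which holds more purines than the first (36.7%), differed by -0.08, with its highest level on antagomir array 3. Kcnj4, a brain and heart inward rectifier above background on all 3 control arrays and 1 antagomir array, was at -3.15, -3.38 and -4.43 against -3.78, -5.18 and -4.69, with overlap and a difference of -0.89 (SE 0.48). Kcnj10 and Kcnj14 differed by 0.24 and 0.01, the second by 0.44 without control array 2 and by -0.30 without antagomir array 3.

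**Figure D4:**
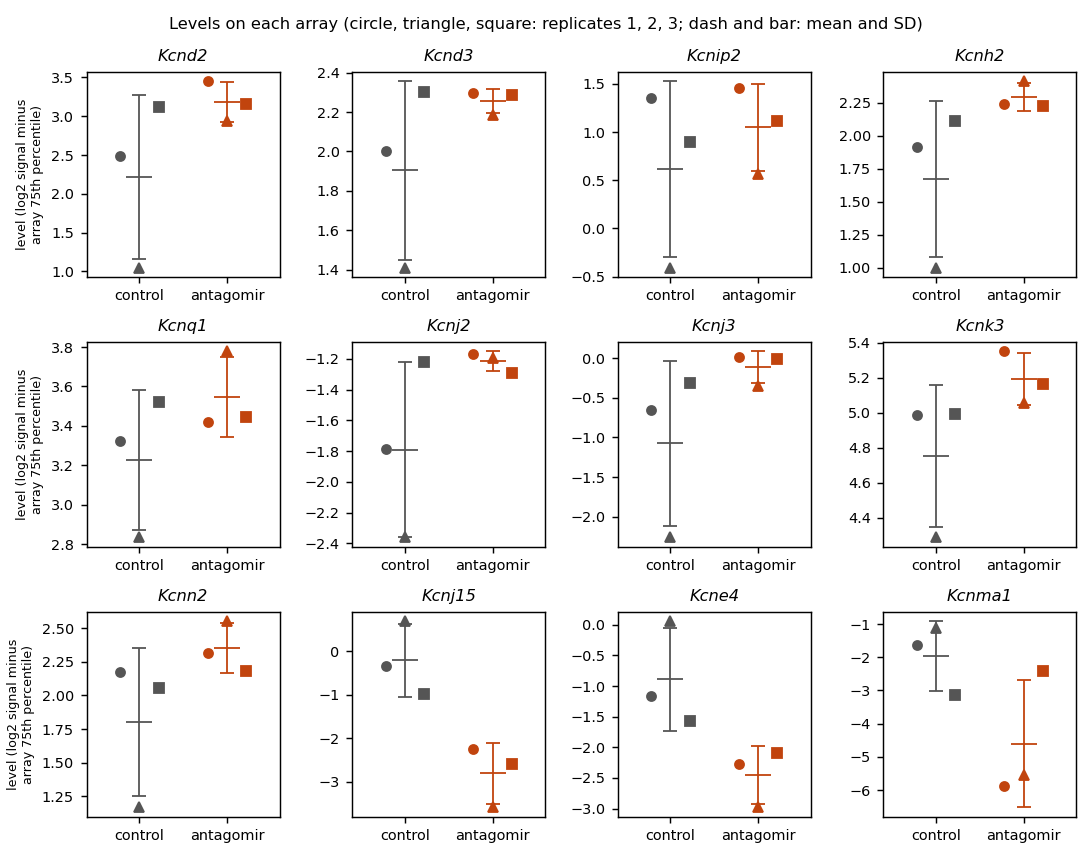
Levels (y axis, log2 signal counted from the 75th percentile of the array) of 12 potassium channel genes are drawn for the 3 control and 3 antagomir arrays, with the mean and SD of each group. Control array 2 (grey triangle) is the lowest point for the first 9 genes, such as Kcnd2 at 1.05, and the highest for Kcnj15, Kcne4 and Kcnma1, at 0.69, 0.06 and -1.12.

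Tandem-pore channels, which carry the background leak of potassium, had 10 of 14 genes tested, 7 higher and 3 lower, with a median of 0.54. The class mean was 1.09 above the control mean on antagomir array 3, and 0.17 and 0.19 above it on antagomir arrays 1 and 2. Without that array 6 genes were higher and 4 lower, with a median of 0.26, and without control array 2 there were 7 and 3, with a median of 0.32.

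Kcnk3, an acid-sensitive leak channel strongly expressed in heart, did not overlap, at 4.99, 4.29 and 4.99 on control and 5.35, 5.06 and 5.16 on antagomir arrays. Its difference was 0.44 (SE 0.23, adjusted p = 0.691), and 0.20 without control array 2. Kcnk9, a close relative, was at -3.004, -3.50 and -2.71 against -2.20, -2.81 and -2.27 and differed by 0.64 (SE 0.27), or by 0.43 without control array 2. Kcnk1, a weakly conducting leak channel, differed by 1.14 (SE 0.48), from -4.91, -4.57 and -3.37 to -2.50, -3.35 and -3.59, with overlap, and by 0.12 with quantile scaling.

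Several larger values of this class rest on antagomir array 3. Kcnk15 was at -3.80, -4.03 and -3.98 on control, -4.02 and -4.00 on antagomir arrays 1 and 2, and -0.99 on antagomir array 3, so that its difference of 0.93 was -0.07 without that array. Kcnk16 went from 0.81 to 0.31 and Kcnk5 from 1.59 to 0.76 without it. Kcnk5 and Kcnk7 reached 3 arrays above background only by counting that array, and Kcnk7 differed by -0.62 with it and -1.61 without it. Kcnk6 and Kcnk13, above background on every array, differed by -0.21 and -0.19, or by -0.10 and -0.0879 without antagomir array 3. Kcnk4 differed by 0.29, or by 0.18 without control array 2. Kcnk2, a stretch-sensitive leak channel of the heart, was above background on 2 control arrays and no antagomir array and was not tested.

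Calcium- or sodium-activated channels with their subunits had 8 of 12 genes tested, 5 higher and 3 lower, with a median of 0.05, but 1 was higher and 7 lower with quantile scaling, at a median of -0.58. Without antagomir array 3 the counts were 2 higher and 6 lower, at a median of -0.30, and without control array 2 they were 5 and 3, at a median of 0.15. Kcnma1, the pore of the large-conductance calcium-activated channel, which relaxes vascular smooth muscle, was at -1.63, -1.12 and -3.13 on control and -5.86, -5.56 and -2.40 on antagomir arrays. Antagomir arrays 1 and 2 were not above background and antagomir array 3 lay within the control range. The difference was -2.65 (SE 1.03, adjusted p = 0.679), and its size is uncertain because 2 of the 3 antagomir readings were at background. A second probe, above background on control arrays 1 and 2 only, was at -3.46, -3.54 and -4.91 against -6.79, -6.88 and -5.97, and its remaining probe was above background on no array.

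Kcnmb1, the subunit that raises the calcium sensitivity of this channel in smooth muscle, was at -2.48, -2.84 and -2.90 on control and -3.41, -3.59 and -2.83 on antagomir arrays. Antagomir arrays 1 and 2 lay below all controls and antagomir array 3 among them, with a difference of -0.54 (SE 0.24). Kcnt2, a sodium-activated channel, was at -1.92, -0.86 and -1.87 against -2.63, -2.52 and -1.81, with a difference of -0.77 (SE 0.37), or -0.43 without control array 2. Beside these values, the smooth muscle marker Cnn1 was at 2.26, 3.46 and 1.81 on control and 1.01, 1.18 and 1.46 on antagomir arrays, the largest difference among the 8 smooth muscle and pericyte markers. Of the pericyte markers, Pdgfrb, Cspg4 and Notch3 differed by -0.64, -0.63 and -0.51, and Rgs5, the only 1 of the 8 that was higher, by 0.14. The part of smooth muscle content in the values of Kcnma1 and Kcnmb1 was not tested.

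The small-conductance channels, Kcnn1 to Kcnn3, link calcium to repolarisation in atrium and nerve. Kcnn2 was at 2.17, 1.17 and 2.06 on control and 2.32, 2.55 and 2.18 on antagomir arrays, without overlap by a narrow margin, a difference of 0.55 (SE 0.30, adjusted p = 0.691) and of 0.24 without control array 2. Kcnn3 and Kcnn4 differed by 0.01 and 0.08, or by -0.25 and -0.36 without antagomir array 3, and Kcnn4, the channel of blood and proliferating cells, was widely spread among antagomir arrays, at -4.28, -1.56 and -1.62. Kcnn1 was above background on antagomir array 3 alone. Kcnmb4 differed by 0.24, or by 0.45 without control array 2. Kcnt1 differed by 0.48, or by -0.0865 without antagomir array 3.

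Genes that work with these channels were read from a list of 23 partners, namely the sulfonylurea receptors, Dpp and Lrrc subunits, anchoring proteins, Irx factors and sodium pump subunits. Of 22 tested, 13 were higher and 9 lower, where 62.6% of all genes were higher, with a median of 0.09 beside 0.09 for all genes. None passed the adjusted limma threshold, where 0.013% of all genes did. At an unadjusted limma p under 0.05 were 0 higher (all genes 3.05%) and 1 lower (all genes 4.16%). That 1 was Fxyd6, a sodium pump regulator, at 5.93, 7.30 and 6.19 on control and 5.24, 5.18 and 5.06 on antagomir arrays, a difference of -1.32 (SE 0.36, adjusted p = 0.590). Dpp6, which joins Kcnd channels, differed by 0.37, and Dpp10 of the same list by -0.08. Irx5, a repressor of Kcnd2 in mouse ventricle, differed by -0.49, and Irx3 and Irx4 by 0.08 and 0.14. Irx5 was highest on control array 2, at -0.47, beside -1.17 and -0.86 on control arrays 1 and 3. Calcium and sodium channel genes, counted in the same way, had 28 of 40 tested, 19 higher and 9 lower, with a median of 0.33 beside 0.29 for the potassium channel genes.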

How the data were processed

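Total RNA of 6 heart samples was measured on 1-colour Cy3 arrays, scanned and read with Agilent Feature Extraction 10.7.1.1 per the submitters' processing notes. In the deposited scanner output, per the file headers, each spot has its processed signal as an intensity, and the mean and background signals used for the normexp alternative are intensities too. The remaining columns used from the deposited files are other values, flags of 0 or 1. The authors' deposited table holds intensities and normalised log2 values, whose method is not given in the sources used here, and served as an alternative only.

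Control and outlier spots were dropped, spots of a probe were averaged on the log2 scale, and each array's 75th percentile was subtracted. Probes well above background on 3 or more of 6 arrays were kept, and the probe with the highest mean stood for its gene. Signal over background stands for depth: 55.2% to 58.5% of gene spots passed that call on 5 arrays, and 73.6% on antagomir array 3. The number of arrays limits the precision: a permutation test of 3 against 3 cannot give a p below 0.1. All arrays lay on 1 slide and in 1 scan. Control arrays 1 and 2 held slide row 1 and the others row 2, so a fit with row as a block compares control array 3 with the antagomir arrays.

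Groups were compared with limma 3.58.1 (R 4.3.3, two-sided, Benjamini-Hochberg over all 22991 genes, steps tested on simulated data). Lists are described by counts and medians, with no test. Named genes are textbook cardiac potassium channels, the 8 smallest p-values in each direction, members above background in 1 group only and the class leaders without overlap. The remaining genes are given to complete each class and were chosen after their values were seen. A few genes are not reported here. The members, lists and partners were chosen with earlier results of these data known. Alternatives were 3 scalings, the authors' table, 4 filters, 2 ways to treat a gene's probes, robust moderation, array weights, replicate number and slide row as blocks, and each array left out in turn. Probes are placed as the array design has them, on mm9. Tables were made in Python 3.11.15 with pandas 2.3.3 and numpy 2.4.6, and plots with matplotlib 3.10.9.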

Additional observations from a re-analysis of the deposited data

How the results depend on the processing

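In 20 alternatives the 32 named and tested potassium channel genes gave 635 values, 605 of the sign reported, and 20 genes kept their sign in all of them. The number of members past the adjusted threshold was 0 except with median scaling, where it was 2 (Kcnj15 and Kcnma1). Over all genes it was 3, and 1 with quantile scaling, the authors' table or no filter, 0 with normexp and quantile scaling, with a filter of all 6 arrays or of 3 arrays other than antagomir 3, and with a block for slide row, 6 with every probe, 8 with array weights, 199 with median scaling, and 0 to 3 with 1 array left out. Members at an unadjusted p under 0.05 numbered 3 higher and 4 lower. They were 0 and 7 with quantile scaling and with the authors' table, 1 and 7 with normexp, 5 and 7 with array weights, 0 and 1 with the slide row, 1 and 5 with median scaling, 4 and 2 without a filter, and 2 lower for the mean of a gene's probes. With 1 array left out they were 1 to 7 higher and 1 to 7 lower. The counts over all genes, both directions together, moved too, from 1658 of 22991 in the reported fit. They were 1612 with quantile scaling, 1609 with the authors' table, 1877 with normexp and 2743 with array weights. The slide row gave 307, median scaling 1184, no filter 1724 of 36085, the mean of a gene's probes 1547, and 1 array left out 911 to 2468.

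Whether replicate numbers pair the samples cannot be settled from 3 arrays a group. Deviations of same-numbered arrays correlated at 0.22, 0.14 and -0.05. For control arrays 1 and 2 the same-numbered array was the best match, but control array 3 correlated best with antagomir array 1, at 0.17. With the replicate block, 6 members were higher and 3 lower at an unadjusted p under 0.05, where 2272 of all 22991 genes were called. With that block 0 of all genes passed the adjusted threshold.

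Of the 61 members, 44 were higher and 17 lower. The counts were 32 and 29 with quantile scaling and the authors' table, 34 and 27 with normexp, and 20 and 41 with median scaling, and 77 of 95 were higher with no filter. The members' median of 0.29 was -0.18 with median scaling and 0.0255 with the slide row, where the median of all genes was 0.02. It was 0.18 to 0.47 with 1 array left out. With median scaling the class medians were -0.10 for Kcna to Kcnd, -0.11 for Kcnh and Kcnq, -0.49 for auxiliary subunits and -0.23 for inward rectifiers. With no filter they were 0.80 for Kcnh and Kcnq and 0.54 for auxiliary subunits. With the slide row they were 0.0869 for Kcnh and Kcnq and -0.11 for inward rectifiers. Inward rectifiers were at -0.0149 with quantile scaling, -0.0044 with normexp, -0.0159 with the authors' table, 0.0927 with array weights, and 0.0352 to 0.42 with 1 array left out. Calcium- or sodium-activated channels were at -0.58 with quantile scaling and -0.58 with the authors' table.

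Differences of single genes turned sign with median scaling for Kcna4 (-0.0596), Kcna5 (-0.31), Kcnd3 (-0.12), Kcnip2 (-0.0375), Kcnj11 (-0.11), Kcnj12 (-0.23), Kcnk3 (-0.0350), Kcnn3 (-0.46), Kcnn4 (-0.39) and Kcnq1 (-0.15). With the slide row they did so for Kcnd3 (-0.0450), Kcnj12 (-0.14) and Kcnj5 (-0.0209). Quantile scaling gave -0.79 for Kcnn3 and -0.0657 for Kcnn4, and the authors' table -0.79 and -0.0661. Normexp gave -0.14 for Kcnn3, and array weights gave -0.0162 for Kcnn3 and -1.08 for Kcnn4. With 1 array left out the ranges were -0.0768 to 0.80 for Kcnip2, -0.23 to 0.11 for Kcnj8, -0.25 to 0.20 for Kcnn3 and -0.39 to 0.97 for Kcnn4. Median scaling shifts every gene alike, and the other causes were not tested. Arrays limit weak channels by signal over background: 34 of 95 genes could not be tested.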

Other observations

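Pacemaker channels carry an inward current that opposes potassium channels at rest. Hcn2, the form abundant in working heart muscle, had control levels of 4.89, 4.57 and 4.90 and antagomir levels of 5.17, 4.86 and 5.002, with overlap and a difference of 0.22.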
